A study of Mus musculus with 6 samples.

Results

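The ligands of the VEGF and angiopoietin families were followed in pure cultures of the murine stromal line PA6 through every probe whose gene name on the array was VEGFA, VEGFB, VEGFC, FIGF, PGF, ANGPT1, ANGPT2, ANGPTL2 or ANGPTL4. These were 16 of the 45281 probes of the array and 9 of its 30854 gene names. FIGF is the older name of VEGF-D, now Vegfd. PA6 cells, here without any ES cells, were grown to confluence and then kept for 3 h in serum-free medium to which no growth factor (-GFs), recombinant FGF2 at 20 ng/ml or recombinant BMP4 at 10 ng/ml was added (the BMP4 dose is that of the labels, while the methods on the co-cultures give a lower one). Each group had 2 replicates, each replicate number standing for 1 untreated, 1 FGF2 and 1 BMP4 well, and the RNA of each well was profiled on 1 Illumina MouseWG-6 v2.0 array, on which beads carry the probes. The comparisons ask which ligands the stroma itself modulates shortly after either factor is added.

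Ligands of the VEGF family are secreted dimers that bind receptor tyrosine kinases on endothelial cells. VEGFA drives the growth and permeability of blood vessels, VEGFC and VEGF-D act mainly on lymphatic vessels, and VEGFB and PGF bind FLT1. The angiopoietins bind the endothelial receptor TEK, which ANGPT1 activates and which ANGPT2 antagonizes or activates depending on context, whereas the angiopoietin-like proteins do not bind TEK, ANGPTL4 being an inhibitor of lipoprotein lipase and ANGPTL2 a secreted glycoprotein linked to inflammation. Stromal cells are a paracrine source of several of these proteins.

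By RefSeq coordinates on GRCm38.p6, used for positions and sequence only, Vegfa lies at chr17:46016993-46032377, Vegfb at chr19:6982472-6987651, Vegfd at chrX:164373522-164402650 and Angpt2 at chr8:18690263-18741562. The 250 bases upstream of the start site are shown for the 3 detected VEGF genes. With FGF2, VEGFA was higher and VEGFB lower, while the difference of FIGF did not pass the main test. They were taken from chr17:46032378-46032627 (minus strand) for Vegfa, for which the window of the start site farthest upstream is printed, from chr19:6987652-6987901 (minus strand) for Vegfb and from chrX:164373272-164373521 (plus strand) for Vegfd. Capitals mark the GC box GGGCGG on either strand, a motif bound by SP1 family factors.
Vegfa: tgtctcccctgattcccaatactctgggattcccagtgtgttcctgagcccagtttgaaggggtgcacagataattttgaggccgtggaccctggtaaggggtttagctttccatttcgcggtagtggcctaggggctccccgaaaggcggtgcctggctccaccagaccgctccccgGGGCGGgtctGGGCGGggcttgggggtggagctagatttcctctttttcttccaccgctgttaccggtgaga
Vegfb: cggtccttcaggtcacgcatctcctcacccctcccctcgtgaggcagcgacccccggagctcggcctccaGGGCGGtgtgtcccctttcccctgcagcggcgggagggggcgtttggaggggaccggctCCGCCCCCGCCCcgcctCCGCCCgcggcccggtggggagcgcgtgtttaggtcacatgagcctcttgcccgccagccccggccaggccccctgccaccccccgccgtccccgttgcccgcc
Vegfd: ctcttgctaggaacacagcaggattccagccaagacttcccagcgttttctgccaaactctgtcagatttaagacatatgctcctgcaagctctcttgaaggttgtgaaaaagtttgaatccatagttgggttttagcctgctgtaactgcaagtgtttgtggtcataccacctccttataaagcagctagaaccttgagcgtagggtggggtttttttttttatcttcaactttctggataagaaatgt
The Vegfa sequence held 2 GC boxes, starting 72 and 62 bases before the start site, the Vegfb sequence 4 and the Vegfd sequence 0, and 32.7% of 32851 RefSeq promoter windows of this length held at least 1. The GC content was 59.2% for Vegfa, 76.4% for Vegfb and 42.4% for Vegfd, against a median of 52.4% over all windows. The EGR motif GCGGGGGCG, searched on both strands, was found once in Vegfb, overlapping 2 of its GC boxes, and in 2.57% of all windows, whereas the other EGR motif searched, GCGTGGGCG (0.536% of windows), was found in none of these 3 sequences. None of the 3 held the AP-1 motif TGANTCA (6.75% of windows), the ETS motif CCGGAAG (6.91%), the CRE motif TGACGTCA (1.55%) or the hypoxia motif ACGTG (16.6%). The hypoxia motif GCGTG (28.2% of windows) was found 2 times in the Vegfb window and in neither of the other windows printed. The second Vegfa window of the table, chr17:46025164-46025413 (minus strand), belongs to an internal start site. It lies inside the span of the Vegfa gene given above, not upstream of the gene. This internal window held 1 GC box (158 bases before its start site), 1 ACGTG (211 bases before it, minus strand) and 1 GCGTG (218 bases before it), with a GC content of 59.6%. These matches describe the letters of the windows and say nothing of binding. The table used held no window for Angpt1, Angpt2 and Angptl4.

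The authors deposited the mean bead intensity of each probe before any normalization between arrays, with a detection p-value that sets each probe against negative controls. Median intensities of the 6 arrays lay between 153.4 and 168.1, and between 15509 and 16459 probes had a detection p-value under 0.05. Of 9 stromal and mesenchymal markers, 8 were detected on all 6 arrays, including COL1A1, PDGFRA and CXCL12, and KITL on none. Of 8 endothelial markers, 7 (PECAM1, CDH5, VWF, EMCN, ESAM, CLDN5 and TIE1) were detected on no array, and KDR was detected on 4 arrays. Of 6 macrophage and leukocyte markers, 3 were detected on no array, LYZ2 on 6 arrays (intensities from 219.4 to 306.1), CSF1R on 5 and AIF1 on 4. Of 5 markers of pluripotent cells, 3 were detected on no array, POU5F1 on 6 arrays (194.4 to 248.4) and DPPA5 on 3. In a culture measured in bulk, fewer cells of a type and less RNA per cell cannot be told apart.

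Of the 16 probes, 7 were detected on all 6 arrays, with intensities from 263.6 to 20389. They represent VEGFA (2 probes), VEGFB, FIGF, ANGPT2, ANGPTL2 and ANGPTL4. The other 9 probes gave intensities from 92.0 to 242.2. Among them were the only probes of VEGFC (120.1 to 150.4) and of PGF (131.4 to 171.5) and both probes of ANGPT1 (92.0 to 164.2), which were detected on no array in any group. A probe not detected has only an upper bound, and no change can be given for these 3 genes. The third probe of VEGFA, the second of ANGPT2 and the other 2 of ANGPTL2 were detected on no array either, and the second probe of ANGPTL4 was detected only on the array of FGF2 replicate 2 (intensity 242.2).

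**Figure D1:**
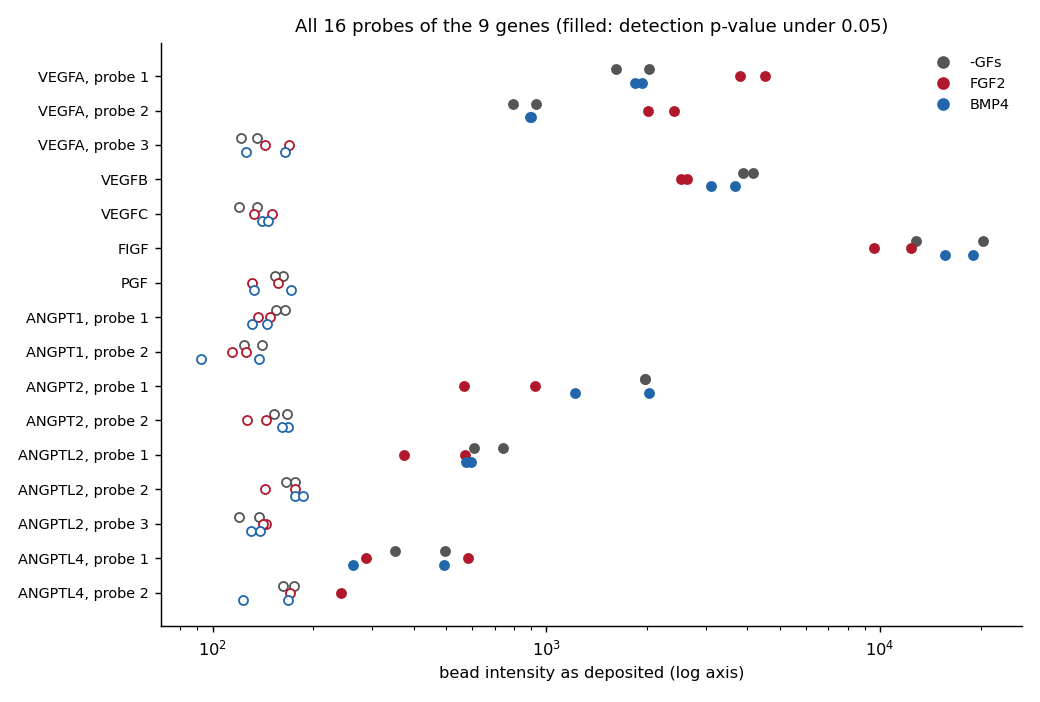
Bead intensity as deposited (log axis) of each of the 16 probes on the 6 arrays, coloured by group, filled where the detection p-value was under 0.05. The 7 probes detected on all arrays lie at or above 263.6, and the 9 others at or below 242.2.

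With FGF2, VEGFA was up-regulated and ANGPT2 down-regulated, both beyond 2-fold, whereas VEGFB was lower by less than 2-fold and no call was made for FIGF, ANGPTL2 and ANGPTL4. With BMP4 none of the 6 genes tested was called. A call required a log2 fold change beyond 1 in either direction together with an adjusted p under 0.1, the p being limma's with Benjamini-Hochberg adjustment over the 11872 genes tested, after cubic spline normalization. By this rule 2 of the 6 genes were called with FGF2, 1 up and 1 down, against 3.53% of all genes tested (2.28% up and 1.25% down), and 3 of 6 passed the adjusted p whatever their fold, 1 higher and 2 lower, against 11.8% (6.03% higher and 5.78% lower). The normalized intensities of the -GFs and FGF2 arrays did not overlap for 5 of the 6 genes, and for 53.7% of all genes. The median log2 fold change was -0.43 over the 6 genes and -0.02 over all genes, and 2 of the 6 were higher with FGF2, against 47.5% of all genes. The precision is limited by the 2 arrays in each group, for which the smallest two-sided p of an exact permutation test is 0.333. The p-values of limma rest on the spread between these wells, drawn for each gene toward a value pooled over all genes.

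VEGFA gave deposited intensities of 2026 and 1613 in -GFs medium (replicates 1 and 2), 4511 and 3793 with FGF2, and 1939 and 1840 with BMP4. Both FGF2 arrays stood above the 4 others, and as deposited the -GFs and BMP4 arrays overlapped each other, which they did not after normalization. After normalization the log2 intensities were 10.78 and 10.73 in -GFs medium, 12.16 and 11.92 with FGF2, and 11.05 and 10.80 with BMP4. The rise with FGF2 was 2.44-fold, a log2 fold change of 1.29 (standard error 0.17, 95% confidence interval 0.89 to 1.68, limma adjusted p = 0.0115), and it was 1.38 in the first pair of wells and 1.20 in the second. By size it was number 149 among the rises of all genes. The call was lost when FGF2 replicate 1 was left out (1.17, adjusted p = 0.107), where the spread of the lone FGF2 array was taken from the other groups.

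The second detected probe of VEGFA gave deposited intensities of 929.6 and 793.7 in -GFs medium, 2409 and 2009 with FGF2, and 893.7 and 899.6 with BMP4. It separated the FGF2 arrays from the others in the same way as the first probe. Its log2 fold change with FGF2 was 1.45 (standard error 0.15, 95% confidence interval 1.09 to 1.80), a 2.72-fold rise, with a limma adjusted p of 0.00786 over the 16111 probes retained. Both detected VEGFA probes and that of ANGPT2 were called, 3 of 7 probes of the members, against 3.22% of all retained probes. With single arrays left out the second VEGFA probe stayed between 1.35 and 1.54 and was called each time.

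VEGFB, a ligand of FLT1, gave deposited intensities of 4161 and 3895 in -GFs medium, 2632 and 2528 with FGF2, and 3123 and 3669 with BMP4. The FGF2 arrays were the lowest of the 6. The log2 intensities were 11.86 and 11.97 in -GFs medium and 11.36 and 11.35 with FGF2, a difference of -0.55 (standard error 0.14, 95% confidence interval -0.89 to -0.22, limma adjusted p = 0.0686) that passed the adjusted p but not the threshold on the fold. It was -0.49 and -0.61 in the 2 pairs of wells. With single arrays left out it lay between -0.62 and -0.49, and whichever of the 6 was left out it no longer passed (adjusted p from 0.107 to 0.317).

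FIGF, the gene of the lymphangiogenic ligand VEGF-D, gave deposited intensities of 20389 and 12797 in -GFs medium, 12370 and 9569 with FGF2, and 15607 and 19015 with BMP4. On the deposited scale both FGF2 arrays were the lowest, but the -GFs arrays differed from each other more than the second -GFs array differed from the first FGF2 array. After normalization the log2 intensities were 14.11 and 13.66 in -GFs medium, 13.64 and 13.28 with FGF2, and 14.11 on both BMP4 arrays. The log2 fold change with FGF2 was -0.42 (standard error 0.21, 95% confidence interval -0.92 to 0.07, limma adjusted p = 0.278). Within the pairs of wells it was -0.47 and -0.38, and modelled with a block for the replicate number the adjusted p was 0.0381.

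**Figure D2:**
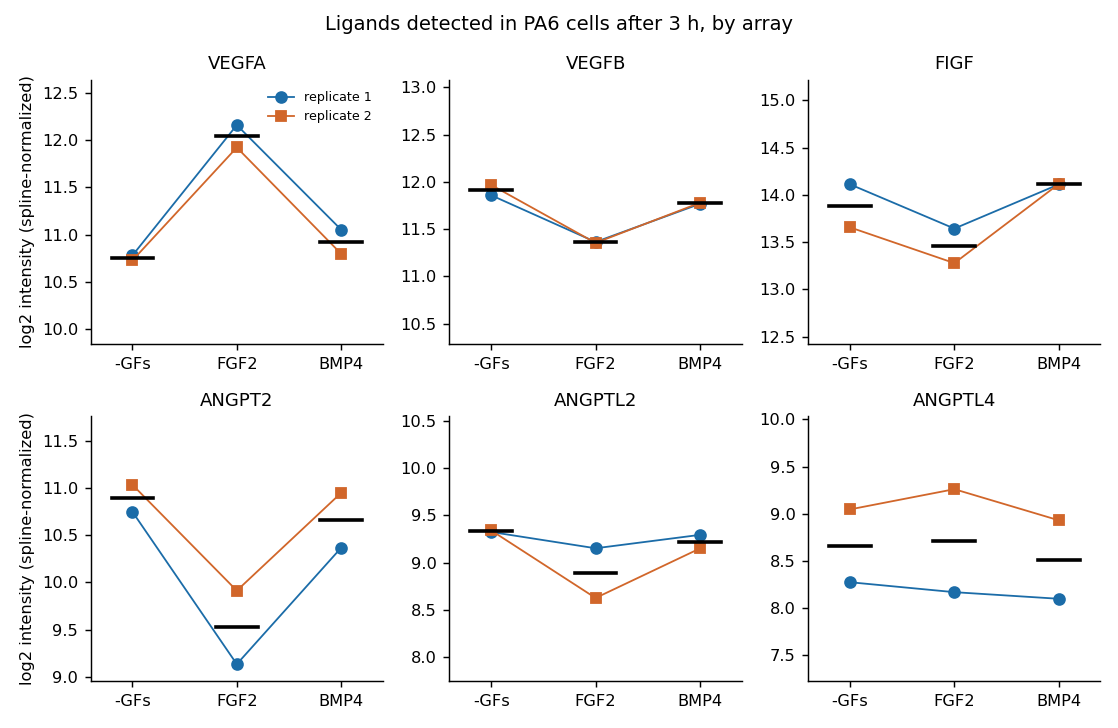
Log2 intensity after spline normalization of the 6 ligand genes with a detected probe, in -GFs medium, with FGF2 and with BMP4. Lines join arrays of the same replicate number, black bars are group means (n = 2), and each vertical axis spans the same number of log2 units around the mean of that gene. VEGFA lies at 12.16 and 11.92 with FGF2, above its other 4 arrays, and ANGPT2 at 9.14 and 9.91, below its other 4.

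ANGPT2, the context-dependent ligand of TEK, gave deposited intensities of 1977 and 1979.5 in -GFs medium, 564.8 and 921.5 with FGF2, and 1221 and 2037 with BMP4. Both FGF2 arrays were below the 4 others, and the replicates differed from each other with FGF2 and with BMP4. The log2 intensities after normalization were 10.75 and 11.03 in -GFs medium, 9.14 and 9.91 with FGF2, and 10.37 and 10.95 with BMP4. With FGF2 ANGPT2 was 2.58-fold lower, a log2 fold change of -1.37 (standard error 0.31, 95% confidence interval -2.10 to -0.64, limma adjusted p = 0.0512), and the differences within the pairs were -1.61 and -1.12. It was number 49 among the falls of all genes. The call was lost when either -GFs array or either FGF2 array was left out, with log2 fold changes of -1.51 without -GFs replicate 1 (adjusted p = 0.112), -1.22 without -GFs replicate 2 (0.173), -0.98 without FGF2 replicate 1 (0.226) and -1.76 without FGF2 replicate 2 (0.112).

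ANGPTL2 gave deposited intensities of 741.9 and 607.4 in -GFs medium, 570.1 and 373.9 with FGF2, and 595.6 and 572.5 with BMP4. The FGF2 arrays were the lowest, 1 of them close to the BMP4 arrays. The log2 fold change with FGF2 was -0.44 (standard error 0.20, 95% confidence interval -0.92 to 0.03, limma adjusted p = 0.244, or 0.0341 with the replicate block), with unequal differences of -0.17 and -0.71 in the pairs. ANGPTL4 gave deposited intensities of 352.5 and 495.7 in -GFs medium, 288.9 and 582.5 with FGF2, and 263.6 and 491.9 with BMP4. In each group the second array was the brighter, and the groups overlapped. The log2 fold change of ANGPTL4 with FGF2 was 0.05 (standard error 0.45, 95% confidence interval -1.01 to 1.12, limma adjusted p = 0.958), an interval that reaches beyond 2-fold in both directions, and its sign was the opposite with arrays scaled only to the median (-0.03).

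With the replicate number as a block, 5 of the 6 genes passed the adjusted p in the comparison of FGF2 with -GFs, against 37.7% of all genes, the added ones being FIGF and ANGPTL2. The called genes were again VEGFA (limma adjusted p = 2.19e-06) and ANGPT2 (limma adjusted p = 2.33e-06), against 3.95% of all genes. With the block the standard errors of the 6 genes were nearly alike, from 0.137 for VEGFB to 0.152 for ANGPTL2. These small p-values therefore rest largely on the spread pooled over all genes.

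With BMP4 the 6 log2 fold changes against -GFs lay between -0.23 and 0.23. None of the 6 genes was called, and in limma an unadjusted p under 0.05 was reached by 0 of them and by 215 of the 11872 genes tested, of which 0.00842% were called. With the block the members called were also 0 (0.0842% of all genes), as were their probes called without it (0.00621% of probes). The methods' t-test called none of the 6 either, adjusted or not. The log2 fold changes were 0.17 for VEGFA (95% confidence interval -0.23 to 0.57), -0.14 for VEGFB (-0.47 to 0.19), 0.23 for FIGF (-0.27 to 0.73), -0.23 for ANGPT2 (-0.96 to 0.50) and -0.11 for ANGPTL2 (-0.59 to 0.37). These 5 intervals lie within the 2-fold threshold in both directions, whereas that of ANGPTL4 (-0.15, interval -1.21 to 0.92) reaches beyond it on the lower side. The sign for ANGPT2 turned without BMP4 replicate 1 (0.06). Normalized intensities of the -GFs and BMP4 arrays did not overlap for 3 of the 6 genes, against 24% of all genes.

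Tested directly against each other, the 2 factors differed in VEGFA and ANGPT2, that is 2 of 6 genes, against 3.07% of all genes (2.03% higher and 1.04% lower with FGF2). The same 2 passed the adjusted p whatever the fold, against 9.06% of all genes, and after normalization the arrays did not overlap for 4 of 6, against 52.8%. Of the 7 probes, 3 were called, against 2.72% of all probes. This comparison shares the FGF2 arrays with the comparison above. VEGFA was 2.17-fold higher with FGF2 than with BMP4, a log2 fold change of 1.12 (standard error 0.17, limma adjusted p = 0.0195), and ANGPT2 was 2.19-fold lower (-1.13, standard error 0.31, limma adjusted p = 0.0942). The second VEGFA probe gave 1.29 (limma adjusted p = 0.0107), a call that leaving out FGF2 replicate 1 ended (1.19, adjusted p = 0.110). The VEGFA call was lost without FGF2 replicate 1 (adjusted p = 0.154), FGF2 replicate 2 (0.127) or BMP4 replicate 2 (0.107), and the ANGPT2 call without any 1 of the 6 arrays (adjusted p from 0.107 to 0.366). VEGFB (-0.41, limma adjusted p = 0.155), FIGF (-0.65, 0.140), ANGPTL2 (-0.33, 0.404) and ANGPTL4 (0.20, 0.850) were not called. With the replicate block, VEGFB (0.0328) and FIGF (0.00325) passed the adjusted p, short of the threshold on the fold, which makes 4 of 6 genes against 34.1% of all genes, while the calls stayed at 2 (3.51% of all genes).

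**Figure D3:**
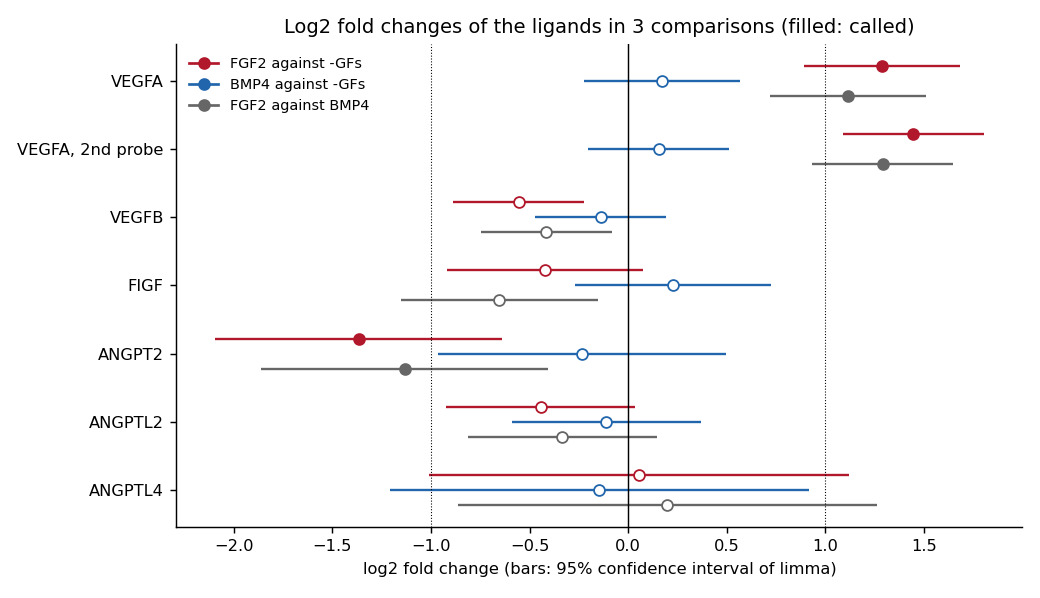
Log2 fold change (point) and 95% confidence interval of limma (bar) of the 6 ligand genes, and of the second VEGFA probe, in the 3 comparisons. Dotted lines mark the threshold on the fold, and filled points are called. VEGFA (1.29) and ANGPT2 (-1.37) are called with FGF2, and none with BMP4 against -GFs.

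Genes around the ligands were described by 9 lists, chosen with earlier results of these data known. In the list of related ligands (PDGFs and other angiopoietins and angiopoietin-like genes) 5 of 9 members were tested, and without the replicate block none passed the adjusted p with FGF2, BMP4 or in the direct comparison. With FGF2 their median log2 fold change was -0.08, and PDGFA, which signals to mesenchymal cells, gave 0.29, PDGFC -0.21, ANGPTL1 0.02, ANGPTL6 -0.08 and ANGPT4 -0.79. With the replicate number as a block ANGPT4 passed with FGF2 (limma adjusted p = 0.00207) and was called in the direct comparison with BMP4 (-1.02, 0.00026), in which PDGFA passed as well (0.92, 8.6e-05). The block brought the share of all genes that passed the adjusted p with FGF2 from 11.8% to 37.7%, and that of called genes from 3.53% to 3.95%.

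Among the receptors 6 of 10 members were tested. With FGF2 1 was higher at the adjusted p, against 6.03% of all genes, and 0 were called, against 3.53% (list median 0.01). FLT1, the receptor of VEGFA, VEGFB and PGF, had log2 intensities of 10.44 and 10.92 in -GFs medium, 11.41 and 11.57 with FGF2, and 10.64 and 11.01 with BMP4. The FGF2 arrays of FLT1 were above the others, and the difference from -GFs medium was 0.81 on the log2 scale (standard error 0.22, limma adjusted p = 0.0796). FLT1 no longer passed without -GFs replicate 1 (adjusted p = 0.217), FGF2 replicate 1 (0.244) or FGF2 replicate 2 (0.355), and was called without -GFs replicate 2 (1.05, 0.0862). The differences of the other receptors with FGF2 were 0.05 for KDR, the main signalling receptor of VEGFA, -0.03 for the co-receptor NRP1, -0.25 for TEK, -0.39 for PDGFRA and 0.37 for PDGFRB. In -GFs medium KDR was detected in replicate 2 only. FLT4, NRP2, TIE1 and PTPRB did not pass the detection filter. With BMP4 the 6 receptors gave 0.15 for FLT1, 0.08 for KDR, 0.26 for NRP1, 0.33 for TEK, 0.02 for PDGFRA and 0.01 for PDGFRB, and none passed the test. With the block 2 receptors were higher and 1 lower at the adjusted p with FGF2, against 37.7% of all genes in either direction, and 0 were called.

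Of 16 genes whose products bind, process or release the ligands, 14 were tested (list median with FGF2 0.23). With FGF2 2 were called, both up, against 3.53% of all genes. At the adjusted p 5 were higher and 0 lower, against 11.8% of all genes in either direction. THBS1, an inhibitor of angiogenesis that can bind VEGFA, rose by 1.56 (standard error 0.14, limma adjusted p = 0.00525), and CTGF, a matrix protein that also binds VEGFA, by 1.57 (standard error 0.38, limma adjusted p = 0.0621). The protease genes MMP3 (undetected on both -GFs arrays and at least 1.12-fold higher), PLAU (0.72) and PLAT (0.58) passed the adjusted p below the threshold on the fold. FURIN, a convertase of VEGFC and VEGF-D precursors, gave 0.25 and MMP2 -0.42, neither of which passed the test without the block. With it 6 were higher and 3 lower at the adjusted p, MMP2 among the lower (limma adjusted p = 0.0388), against 37.7% of all genes in either direction. With BMP4 none passed without the block. CTGF had a log2 fold change of 1.11 there (limma adjusted p = 0.999, or 0.0255 with the replicate block), and the next largest difference was -0.25 for PLAT.

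A list of lipoprotein lipase, the enzyme that ANGPTL4 inhibits, its partners and other lipases had 3 of 7 members tested. With FGF2 0 were called and 0 were higher (LPL -0.27, LMF1 -0.62 and PNPLA2, the gene of a separate lipase, -0.53). Of the PPAR factors and PPAR target genes, a group to which ANGPTL4 itself belongs, 5 of 12 were tested and none passed without the block, with a median of -0.28, PPARD at 0.71 and RXRA at -0.65. With the block LMF1 (limma adjusted p = 0.00265) and PNPLA2 (0.00771) of the first list were lower, and of the second PPARD was higher (0.000788) and 2 were lower, RXRA (0.00516) and ADFP (0.0212). With BMP4 neither list had a member that passed, the largest differences being -0.48 for PNPLA2 and 0.33 for PPARG.

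VEGFA is a textbook target of the hypoxia inducible factors. Of 18 such factors and target genes 13 were tested, and 0 were called with FGF2, against 3.53% of all genes. At the adjusted p 1 was higher and 1 lower, against 11.8% of all genes in either direction. The list median was -0.21. The glucose transporter gene SLC2A1 was higher (0.94, limma adjusted p = 0.0348) and ADM, the gene of the vasodilator adrenomedullin, lower (-0.96, limma adjusted p = 0.0581). SLC2A1 lay between 0.76 and 1.11 with single arrays left out and did not pass each time. With single arrays left out ADM lay between -1.30 and -0.64 and did not pass each time either. Over all 22 alternatives ADM lay between -1.58 and -0.64. It was called under 6 of them, and SLC2A1 under 1. HIF1A (0.48), LDHA (0.47), PGK1 (0.46) and EPAS1 (-0.28) did not pass without the block. With it 4 members were higher at the limma adjusted p, including HIF1A (0.0154), LDHA (0.0182) and PGK1 (0.0191). The 3 lower ones were ADM (0.000366), NDRG1 (log2 fold change -0.62, 0.00927) and VHL (-0.56, 0.0118). Of all genes 37.7% passed with the block, in either direction. With BMP4 ADM gave -0.54 and NDRG1 0.51, and no member passed.

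Of 13 early response genes of the ERK pathway, which FGF receptors activate, 11 were tested (list median with FGF2 1.98). With FGF2 9 were called up, against 2.28% of all genes, and 10 were higher at the adjusted p, against 6.03%. The named calls were EGR1, EGR2, EGR3, FOS, JUN, JUNB, ETV4, ETV5 and DUSP6, from 1.24 for JUN to 4.19 for EGR1. With BMP4 none passed, the median was -0.14, and the largest differences were -0.56 for JUN and 0.51 for JUNB.

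Of 6 genes of RNA-binding proteins that act on AU-rich messengers, a class to which the VEGFA messenger belongs, all 6 were tested. With FGF2 3 were higher, with a list median of 0.03, and 1 was called, against 3.53% of all genes. This was ZFP36, whose product promotes the decay of such messengers, with a rise of 1.25 (standard error 0.20, limma adjusted p = 0.0202). ELAVL1, whose product stabilizes them, gave 0.34, HNRPL -0.34, KHSRP 0.06 and ZFP36L1 -0.01, and ZFP36L2 was undetected on both FGF2 arrays. Of 20 other secreted factors that act on endothelium 15 were tested, with 3 called up and, at the adjusted p, 4 higher and 1 lower (ADM). The shares of all genes were 2.28% called up, 6.03% higher and 5.78% lower. SPP1, the gene of osteopontin, rose by 3.45 (standard error 0.41, limma adjusted p = 0.01) and TGFB1 by 1.14. CYR61, a matrix protein, was undetected on both -GFs arrays and at least 2.13-fold higher, while FGF7 gave 1.23 without passing (limma adjusted p = 0.227, or 0.000816 with the replicate block, which called it). The log2 fold change of CYR61 was 1.62, and 1.43 and 1.81 in the 2 pairs of wells. The fits for CYR61 without FGF2 replicate 1 (0.53) or FGF2 replicate 2 (0.42) gave values below both pairs. The arrays of this probe cannot give such values, so these fits do not show how far its change depends on 1 array. The log2 fold change of FGF7 was 2.11 without -GFs replicate 1 and 0.36 without -GFs replicate 2. With BMP4 neither list had a member that passed. Of the 15 list genes called with FGF2, 7 kept the call whichever array was left out (EGR1, EGR2, EGR3, ETV5, DUSP6, THBS1 and SPP1), and 8 lost it without at least 1 array. These were FOS (1.06 to 2.16) and JUN for any 1 of the -GFs and FGF2 arrays, JUNB, CYR61 and ZFP36 for either FGF2 array, CTGF for these and -GFs replicate 2, TGFB1 for -GFs replicate 1 or FGF2 replicate 2, and ETV4 for FGF2 replicate 2. The loss for CYR61 is that of the fits above, which do not describe the probe tested here.

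**Figure D4:**
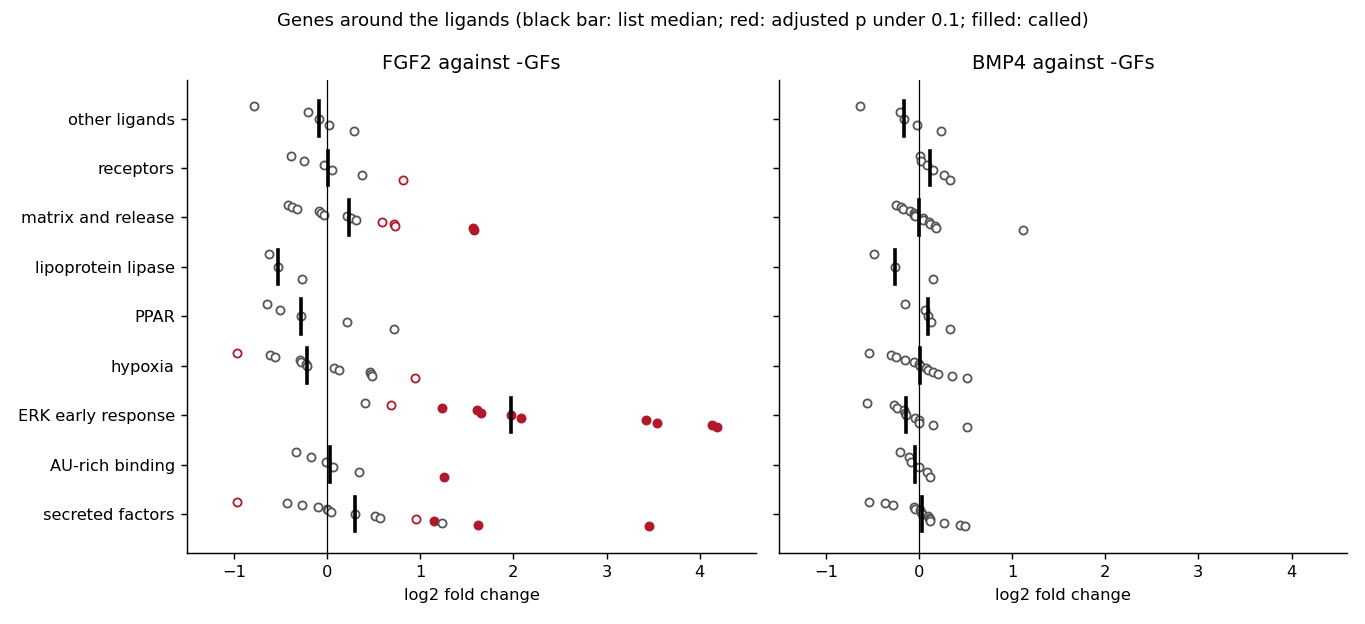
Log2 fold change of each tested member of the 9 lists with FGF2 (left) and BMP4 (right) against -GFs. Points are genes, outlined in red at an adjusted p under 0.1 and filled in red where called, and black bars are list medians. With FGF2 the ERK early response list has a median of 1.98 and the receptor list of 0.01, and with BMP4 no point is red.

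The genes whose profile over the 6 arrays was most like that of each called ligand were found by the root mean square difference of the log2 intensities, each gene centred on its own mean. For VEGFA these were MMD (0.05 log2 units), MAK16 (0.08), TFRC, the transferrin receptor gene (0.09), PTPN2, a tyrosine phosphatase gene (0.09), and 9130422G05RIK (0.10), all called up with FGF2 with log2 fold changes from 1.12 to 1.34. For ANGPT2 they were WNK4, a kinase gene (0.11), VGLL4 (0.12), SULT1A1, a sulfotransferase gene (0.15), PPP1R3C (0.16) and ADH7 (0.16), with log2 fold changes from -1.35 for PPP1R3C to -1.10 for ADH7. Of these, PPP1R3C was not called (limma adjusted p = 0.109), and the called ones other than MAK16 lost the call without at least 1 of the -GFs and FGF2 arrays. The arrays used for this likeness are those of the comparisons, so that it is a description without a test.

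The ligands differed between replicate numbers to unequal degrees. ANGPTL4 was higher in replicate 2 than in replicate 1 in each group, by 0.77 in -GFs medium, 1.09 with FGF2 and 0.83 with BMP4 on the log2 scale, and ANGPT2 by 0.29, 0.78 and 0.58. For VEGFA the same difference ran from -0.26 to -0.05 and for VEGFB from -0.01 to 0.11. PA6 cells have an adipogenic potential, and 2 of the 7 adipocyte markers also differed between replicate numbers by more than 1 log2 unit in each group. ADIPOQ, the gene of adiponectin, was undetected on the 3 arrays of replicate 1 and detected on the 3 of replicate 2, where its log2 intensity was higher by 3.47 to 4.10, and CFD, the gene of adipsin, was higher by 1.20 to 2.05. The other 5 differed by less, by 0.19 to 0.68 for PLIN (detected on 2 arrays), 0.17 to 0.29 for CEBPA (4 arrays), -0.07 to 0.58 for LEP (5 arrays), -0.08 to 0.16 for FABP4 and -0.00 to 0.36 for RETN. The summed intensity of the 7 adipocyte markers was 1188 and 4059 in -GFs medium (replicates 1 and 2), 1161 and 2970 with FGF2, and 1096 and 4014 with BMP4, of which ADIPOQ alone gave 2454, 1658 and 2372 in replicate 2. Of the 7, none was detected on all 6 arrays, and FABP4 and RETN on no array. Stromal markers differed between replicate numbers as well. COL3A1 was higher in replicate 2 in each group, by 0.58 to 1.17, and COL1A2 by 0.18 to 0.73. THY1 (-0.67 to -0.26) and CXCL12 (-0.55 to -0.35) were lower in each group, and the other stromal markers changed sign between groups. The part of adipocyte-like cells in the values of ANGPTL4 and ANGPT2 was not tested, and the comparisons within the pairs of wells, given above, hold the replicate number constant.

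**Figure D5:**
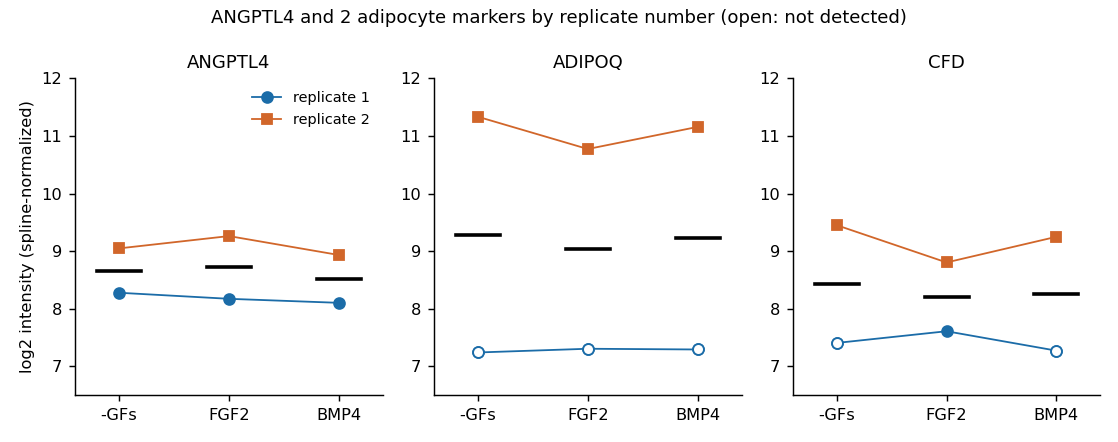
Log2 intensity of ANGPTL4 and of the adipocyte markers ADIPOQ and CFD in the 3 groups, lines joining arrays of the same replicate number, black bars group means (n = 2), open points probes not detected on that array. In each panel replicate 2 lies above replicate 1, for ANGPTL4 by 0.77 to 1.09.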

How the data were processed

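RNA of 6 wells of PA6 cells was profiled on Illumina MouseWG-6 v2.0 arrays. The values the authors deposited are bead intensities on a linear scale without normalization between arrays, together with detection p-values, and the submitters' processing notes name GenomeStudio 2011.01. The table also holds 9 unheaded columns with values on 2045 lines, and 6 remnant lines, none of which was used. Samples were grouped by the labels. Cubic spline normalization, which the methods name, was rewritten for R 4.3.3 (452 quantiles for each array), followed by conversion to log2. The detection filter kept the 16111 probes whose detection p was below 0.05 on the 2 arrays of any group, and each of the 11872 genes took its brightest probe on average. A limma 3.58.1 model of the 3 groups had no block (3 residual degrees of freedom). A bound ("at least") sets the mean of the brighter group against the dimmer group, whose arrays each enter with their lowest detected signal or the probe's signal, whichever is higher. The procedure was tested on simulated data with independent noise on each array and no effect shared by replicate number. This checks that planted changes are recovered on average, not the rate of false calls in these data.

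The members and lists were chosen with earlier results of these data known. Named genes are every member with its probes, every tested receptor, the called genes of each other list with the 2 largest differences among those detected in both groups, and the 5 genes most like each called member. Other genes are named to account for a list and were chosen after their values were seen. According to the labels the replicate numbers pair the arrays, and arrays of the same number also deviated together from their group means (correlations across genes of 0.602, 0.741 and 0.579). The alternatives, 20 planned and 3 added after seeing the data, were other normalizations, detection filters, probe rules, models and thresholds, the methods' t-test, and leaving out each array.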

Additional observations from a re-analysis of the deposited data

How the results depend on the processing

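Every direction of VEGFA, VEGFB, FIGF and ANGPTL2 in the 3 comparisons was kept under the alternatives that gave a value, whereas that of ANGPTL4 turned under 5 alternatives for FGF2 against -GFs (to as low as -0.49), 2 for BMP4 against -GFs and 2 for FGF2 against BMP4, and that of ANGPT2 under 1 for BMP4 against -GFs. For FGF2 against -GFs, the 2 ligands called became 1 with the methods' t-test unadjusted and 0 adjusted, and 0 to 2 with an array left out. The called probes (3) became 0 with the adjusted t-test and 1 to 3 with an array left out. The called list genes (15) became 9 with detection on all 6 arrays, 23 with no threshold on the fold, 0 with the adjusted t-test and 8 to 15 with an array left out. For FGF2 against BMP4, the 2 ligands became 1 with neqc, with no detection filter, with only the 2 groups compared and with the unadjusted t-test, 0 with the adjusted t-test, and 0 to 1 with an array left out. The called probes (3) became 0 with the adjusted t-test and 0 to 2 with an array left out, and the list genes (14) became 9 with detection on all 6 arrays, 0 with the adjusted t-test, 24 with neqc and the replicate block, and 8 to 16 with an array left out. The cause of these changes was not tested. Left-out arrays and the t-test use fewer samples or give up the pooled spread. With FGF2 against -GFs 419 genes were called in all, 794 with neqc, 1143 with neqc and the replicate block, 1402 with no threshold on the fold, 0 with the adjusted t-test and 106 to 439 with an array left out. With FGF2 against BMP4 the 365 called genes became 640, 987, 1076 and 0 in the same order, and 96 to 385 with an array left out. With BMP4 against -GFs the 1 called gene became 2 with a looser detection filter or with the trend and robust options, 8 with the unadjusted and 0 with the adjusted t-test, 10 with the replicate block, also after median scaling, and 0 to 2 with an array left out. The replicate block left the called ligands at 2, 0 and 2 in the 3 comparisons. It added 1 list gene with BMP4, CTGF, also after median scaling (1). With FGF2 the median of all probes was -0.09 under median scaling and -0.02 under the cubic spline, quantile normalization and neqc. Signals below the detection threshold limit what can be said of VEGFC, PGF and ANGPT1.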
